A study of Mus musculus with 4 samples.

Results

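The transcripts described here encode initiation factors (eIF) and elongation factors (eEF) of protein synthesis, and some inhibitors and partners whose gene symbols begin alike. They were counted in 4T1-T cells, which derive from 4T1, a mammary tumour line of the mouse. All cells had been silenced for Asns, the asparagine synthetase gene, and were grown in DMEM, a culture medium, either without asparagine (libraries A and B) or with it (libraries A and B). The labels do not say how Asns was silenced, for how long asparagine was withheld, or whether the libraries came from separate cultures, and no unsilenced library was analysed here. The members were all genes of the count table whose symbol starts with Eif and a digit from 1 to 6, or with Eef and 1 or 2, leaving out the Eif2ak kinases, and there were 59 of them among 23481 genes. A low-count filter kept 53 of them among the 12843 genes tested, and the other 6 are described at the end of the results on levels.

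Initiation begins when eIF2, bound to GTP, carries the initiator methionine tRNA to the small ribosomal subunit, with eIF1, eIF1A, eIF5 and the eIF3 scaffold. The eIF4 proteins bind the mRNA cap, unwind the leader and bring the subunit to the mRNA, and 4E-binding proteins keep the scaffold eIF4G off the cap-binding protein eIF4E when mTORC1 is inactive. eIF2B recharges eIF2 with GTP, and phosphorylated eIF2 inhibits it, which is how cells short of an amino acid slow initiation through the kinase GCN2. In elongation eEF1A delivers aminoacyl-tRNA, the eEF1B subunits recharge eEF1A, and eEF2 moves the ribosome along the mRNA. Many elongation factor mRNAs and some initiation factor mRNAs begin with a 5′ terminal oligopyrimidine tract (TOP), a C followed by a run of C and T, through which mTORC1 controls their translation.

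No member passed the test between the media. Translation factor transcripts made up 2.26% of gene counts in both libraries without asparagine and 2.14% (A) and 2.19% (B) in those with it. The widest of the 95% Wilson intervals of these shares, which cover counting error only, ran from 2.25% to 2.264%. Eif3a and Eef1a1 alone gave 31.8% of the members' counts in library A without asparagine, against 25.4% in its partner B and 26.6% (A) and 27.4% (B) with asparagine. In edgeR's quasi-likelihood test with Benjamini-Hochberg adjustment over all genes, 0 of 53 members were called at an adjusted p threshold of 0.05, where 0.771% of all genes tested were called higher without asparagine and 1.07% lower. The smallest adjusted p of a member was 0.137. DESeq2 (6 members at an unadjusted p under 0.05) and limma-voom (8 members) also called 0.

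Among these uncalled differences 33 of 53 members lay above 0, or 62.3%, against 51.4% of all genes tested. At an unadjusted p under 0.05, edgeR gave 8 members higher (15.1%) and 0 lower, against 8.65% of all genes higher and 9.48% lower. Both libraries without asparagine lay above both libraries with it for 18 members (34.0%, against 26.1% of all genes tested) and below both for 4 (7.55%, against 26.4%). The median log2 fold change, coded as without minus with asparagine, was 0.04 over the members, from -0.32 to 0.48, beside 0.01 over all genes tested. It was 0.10 without library A and 0.00 without library B of the cells without asparagine. Separate cultures are not named in the labels, so the p-values reflect only how far these 4 samples spread, and that spread may be technical.

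The libraries held between 17977552 and 30260582 gene counts, and library A without asparagine stood apart from the other 3. HTSeq assigned no feature to 56.6% of its reads, against 46.3% to 49.3% in the others. The precursor transcript of ribosomal RNA, Rn45s, made up 3.53% of gene counts in that library and 0.884% to 1.66% elsewhere. All 5 epithelial markers were above 10 CPM (counts scaled to a common library size by TMM) in every library, with summed levels of 911 to 923 CPM without and 761 to 843 CPM with asparagine. Of the markers found for other cell types, 5 of 6 for leukocytes, 4 of 5 for fibroblasts, 3 of 3 for endothelial cells and 3 of 3 for adipocytes stayed under 1 CPM in every library, and the T cell gene Cd3e and the adipocyte gene Adipoq were at 0. The exceptions were Cd68, from 5.6 to 6.92 CPM, and Pdgfra, with 18.1 and 22.8 CPM without and 42.8 and 40.7 CPM with asparagine. The summed levels without and with asparagine were 6.89 to 7.52 and 6.43 to 6.61 CPM for leukocyte, 18.5 to 23.1 and 41.0 to 43.3 CPM for fibroblast, 0.447 to 0.654 and 0.462 to 0.801 CPM for endothelial, and 0.0447 to 0.0545 and 0.1 to 0.21 CPM for adipocyte markers. The part of these markers in the results was not tested. A lower share of a transcript and less RNA per cell cannot be told apart in these bulk samples.

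**Figure D1:**
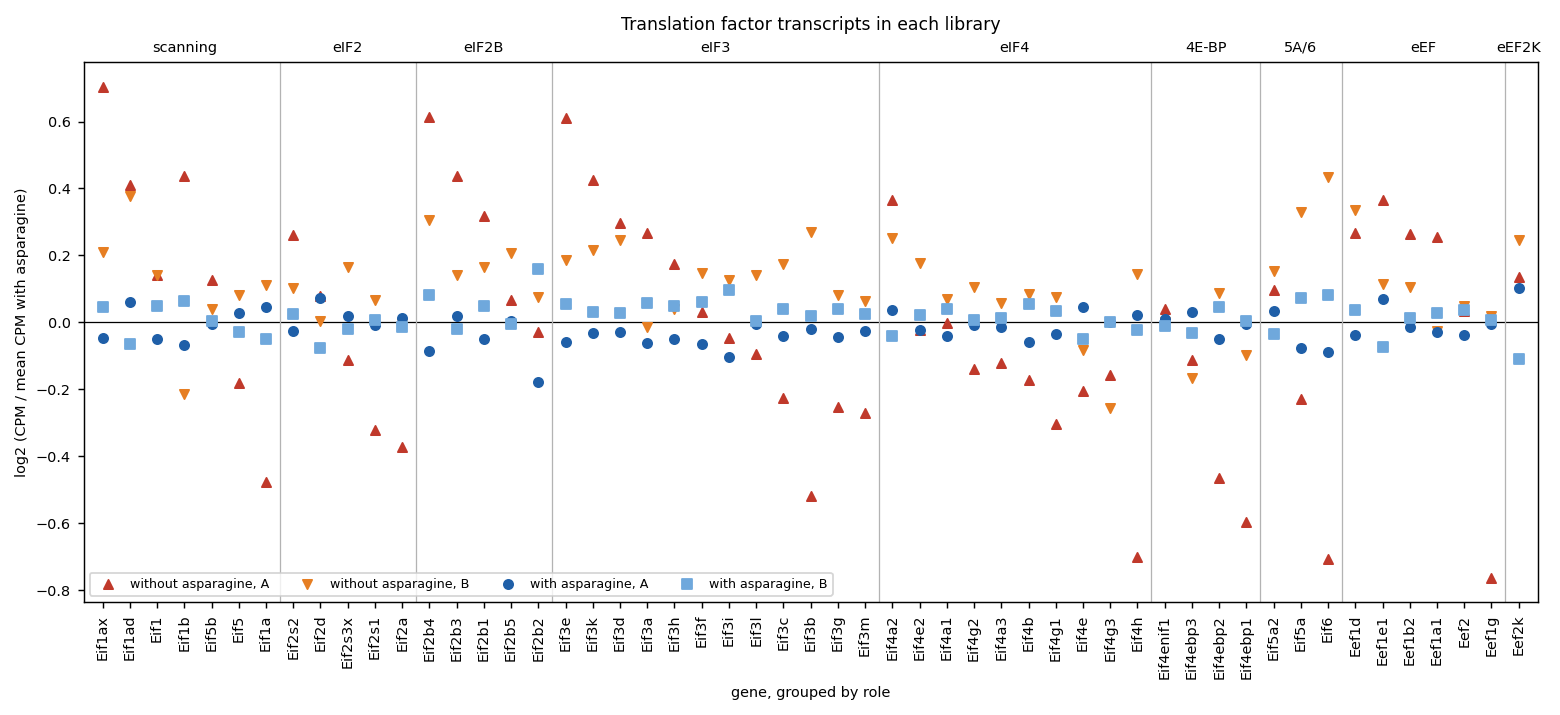
The vertical axis gives log2 of each library's CPM over the mean CPM with asparagine, for the 53 tested members grouped by role on the horizontal axis, with 1 symbol per library (triangles without, circles and squares with asparagine). The red triangles of library A without asparagine spread widest in both directions, down to Eef1g at 357 CPM against 603 and 608 CPM with asparagine.

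The starts of TOP mRNAs are shown because these factors are the members whose translation is tied most closely to mTORC1, while the counts measure their RNA. Of the 9 members listed as having a TOP mRNA, 5 had a start window in the RefSeq promoter table (build GRCm38.p6, the assembly also named mm10). Each window runs 5′ to 3′ on the gene's strand, 30 bases long with 10 before the annotated start, and capitals mark a C-led pyrimidine run of at least 5 bases that begins within 5 bases of that start.
Eef1a1, minus strand, chr9:78481705-78481734: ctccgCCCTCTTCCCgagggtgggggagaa
Eif3f, plus strand, chr7:108934405-108934434: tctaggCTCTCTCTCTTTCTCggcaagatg
Eef1b2, plus strand, chr1:63176821-63176850: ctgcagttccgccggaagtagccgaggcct
Eef2, plus strand, chr10:81176621-81176650: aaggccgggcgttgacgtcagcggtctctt
Eif4b, plus strand, chr15:102073763-102073792: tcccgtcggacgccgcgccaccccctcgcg
A run was found in Eef1a1 and Eif3f. In the other 3 windows no run began within 5 bases of the annotated start, and runs further along a window were not marked. This says only that these letters are not beside the annotated start. Among all 45 members with a window 11 held such a run (24.4%), against 21.7% of 16479 genes of the table, searched on the gene's own strand only. With the run required at the annotated start base itself the shares were 4.44% and 2.79%.

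The 9 TOP members had a median log2 fold change of 0.11, and 0 were called. Above 0 lay 7 of them (77.8%, against 51.4% of all genes tested). The 2 below 0 were Eef1g (-0.32) and Eif4b (-0.04). For 3 the groups did not overlap, all higher without asparagine (33.3%, against 26.1% of all genes tested). The median of the 9 was 0.08 without library A and 0.17 without library B of the cells without asparagine. Eef1d, which encodes the delta subunit of the exchange factor that recharges eEF1A, had 184 (A) and 193 (B) CPM without asparagine against 149 (A) and 157 (B) CPM with it. Both libraries without asparagine were above both with it, by a log2 fold change of 0.30 ± 0.10 (SE, edgeR adjusted p = 0.195). Exons of Eef1d overlap those of Naprt on the same strand. Eef1b2, which encodes the catalytic subunit of the same complex, had 555 and 497 CPM without and 458 and 466 CPM with asparagine, again without overlap. Its exons overlap those of Ndufs1 on the opposite strand, which had 107 and 102 CPM without and 97.1 and 96.9 CPM with asparagine. Eef2, the translocase, differed little, with 1365 and 1380.5 CPM without and 1298 and 1368 CPM with asparagine. Eef1a1 had 3280.3 and 2703 CPM without and 2695 and 2807 CPM with asparagine, so that library A alone was high (log2 fold change 0.12 ± 0.13, edgeR adjusted p = 0.652). Eif3f, whose product is an eIF3 subunit, had 61.7 and 66.9 CPM without and 57.8 and 63.0 CPM with asparagine, and its groups overlapped.

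Of the 6 elongation factor genes tested, Eef1e1 counted among them, 5 had a fold change above 0 and 1 below, with a median of 0.15 and 0 called. The 1 below 0 was Eef1g, the gamma subunit that anchors the eEF1B complex, with 357 CPM in library A and 614 CPM in library B without asparagine, where both libraries with it had 603 and 608 CPM. Only library A was low, and the log2 fold change of -0.32 ± 0.23 (SE, edgeR adjusted p = 0.492) was 0.02 without that library and -0.76 without library B. Eef1e1, which encodes a scaffold protein of the multi-synthetase complex also named AIMP3, had 52.4 and 44.0 CPM without and 42.7 and 38.6 CPM with asparagine. Eef2k, the kinase that inactivates eEF2, was scarce, with 7.96 and 8.59 CPM without and 7.78 and 6.71 CPM with asparagine (log2 fold change 0.20 ± 0.16, edgeR adjusted p = 0.549). The value was 0.30 without library A and 0.09 without library B of the cells with asparagine.

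The genes of start codon scanning and subunit joining held Eif1ax, the member with the highest fitted fold change. Of 7 tested, 5 lay above 0 and 2 below, and 0 were called. The groups did not overlap for 4, all higher without asparagine (57.1%, against 26.1% of all genes tested). Eif1ad, a gene for an eIF1A domain protein, was counted among the 7 and among these 4. The group median was 0.14. Eif1ax, an X-linked gene for eIF1A, which opens the decoding site for scanning, had 93.7 CPM in library A and 66.6 CPM in library B without asparagine and 55.7 and 59.4 CPM in the cells given asparagine. The log2 fold change was 0.48 ± 0.17 (SE, edgeR adjusted p = 0.210), 0.21 without library A and 0.70 without library B of the cells without asparagine. Eif1a, the other eIF1A gene, had 337 and 506 CPM without and 484 and 453 CPM with asparagine, with library A low and library B high. Library A was thus the highest of the 4 for Eif1ax and the lowest for Eif1a.

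Eif1ad, a gene for an eIF1A domain protein, had the smallest p of all members. Libraries A and B had 59.0 and 57.6 CPM without asparagine, against 46.3 and 42.4 CPM with it, so both groups were tight and did not overlap (log2 fold change 0.40 ± 0.11, SE, edgeR adjusted p = 0.137). Exons of Eif1ad overlap those of Banf1 on the opposite strand, and Banf1 had 101 and 98.7 CPM without and 74.3 and 83.0 CPM with asparagine. The counting is not stated to use strand, so reads of this pair cannot be told apart where they overlap. Eif1, the guardian of start codon choice, had 191 CPM in each library without and 167 and 179 CPM with asparagine (log2 fold change 0.14 ± 0.10, edgeR adjusted p = 0.470). Its paralog Eif1b had 34.7 and 22.1 CPM without and 24.5 and 26.8 CPM with asparagine, so the libraries without asparagine lay on both sides of the others. Eif5, the GTPase activator of eIF2, and Eif5b, which joins the ribosomal subunits, had 1295 and 1555 CPM and 1316 and 1238 CPM without asparagine. With asparagine they had 1497 and 1440 CPM and 1200.4 and 1208 CPM, and only Eif5b had groups that did not overlap. Exons of Eif5b overlap those of Rev1 on the opposite strand, which had 60.7 and 41.9 CPM without and 45.5 and 41.1 CPM with asparagine.

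All 5 subunit genes of eIF2B, the exchange factor at which the amino acid stress response acts, had a fold change above 0. For 4 of them, the exception being Eif2b2, both libraries without asparagine lay above both with it (80.0% of a list of 5, against 26.1% of all genes tested), and 0 were called. The median log2 fold change was 0.24, and it was 0.16 when library A and 0.31 when library B was left out of the cells without asparagine. Eif2b4, the delta subunit of the regulatory core, had 17.2 and 13.9 CPM without and 10.6 and 11.9 CPM with asparagine (log2 fold change 0.46 ± 0.16, SE, edgeR adjusted p = 0.204), and the value was 0.29 without library A. Its exons overlap those of Snx17 on the opposite strand, which had 20.7 and 29.8 CPM without and 30.3 and 31.7 CPM with asparagine, the other direction. Eif2b1, the alpha subunit that reads phosphorylated eIF2, had 64.6 and 58.1 CPM without and 50.1 and 53.6 CPM with asparagine (log2 fold change 0.24 ± 0.11, edgeR adjusted p = 0.308). Eif2b3, the gamma subunit, had 43.1 and 35.1 CPM without and 32.2 and 31.4 CPM with asparagine. The catalytic subunit gene Eif2b5 had 50.3 and 55.5 CPM without and 48.2 and 47.9 CPM with asparagine, with the lowest fold change of the 4 (0.14). Eif2b2, the beta subunit, had 25.3 and 27.2 CPM without and 22.8 and 28.8 CPM with asparagine, and its groups overlapped.

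The substrate of eIF2B showed no common direction among its subunits. Eif2s1, which encodes the alpha subunit that GCN2 phosphorylates, had 464 (A) and 607 (B) CPM without asparagine, against 576 and 583 CPM with asparagine (log2 fold change -0.11 ± 0.14, SE, edgeR adjusted p = 0.699). Eif2s2, the beta subunit, had 339 and 304 CPM without and 278 and 288 CPM with asparagine, with groups that did not overlap (0.18 ± 0.11, edgeR adjusted p = 0.401). Eif2s3x, the X-linked gamma subunit that binds GTP and tRNA, had 179 and 217 CPM without and 196 and 191 CPM with asparagine. Among the alternative carriers of initiator tRNA, Eif2a had 219 and 283 CPM without and 286 and 281 CPM with asparagine, and Eif2d had 19.6 and 18.6 CPM without and 19.5 and 17.6 CPM with asparagine. Of these 5 genes 3 lay above 0 and 2 below, with a median of 0.03.

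**Figure D2:**
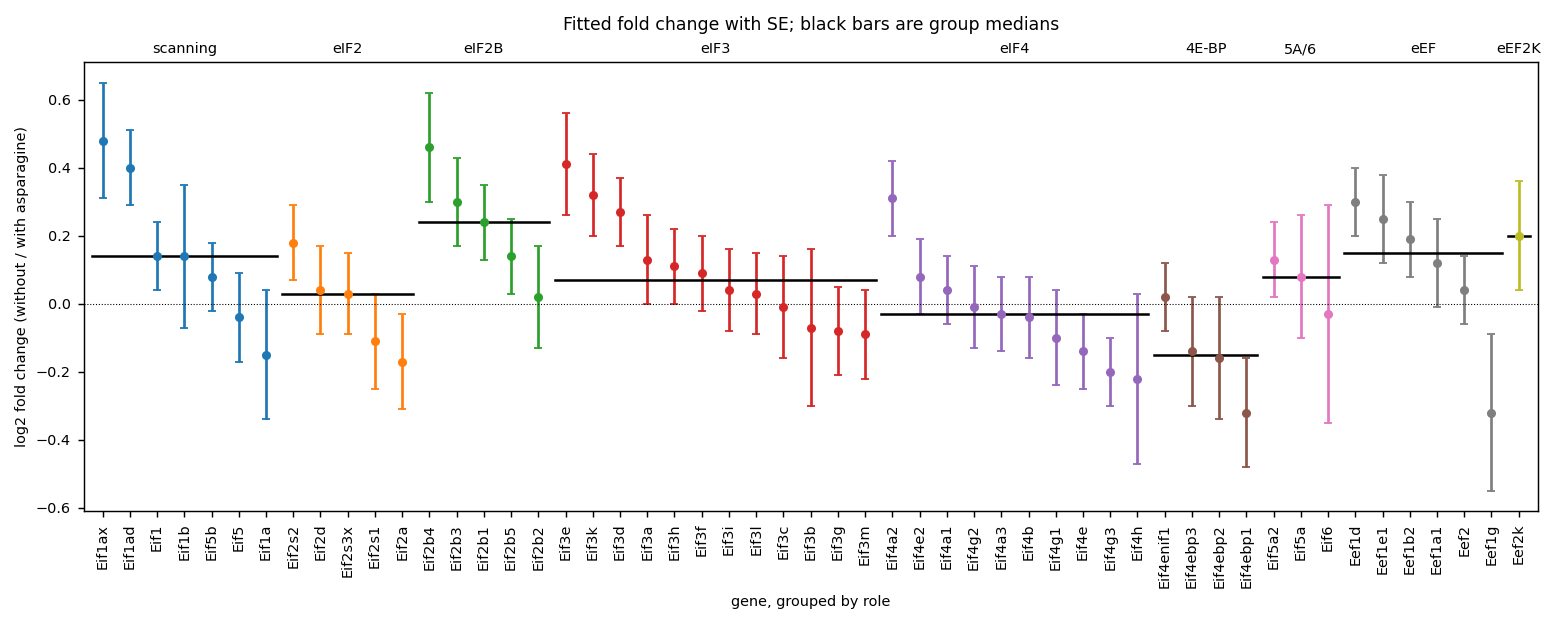
Points give the fitted log2 fold change of each tested member, without over with asparagine, and bars its SE, with genes grouped by role and a black line at each group's median. The eIF2B median lay at 0.24 and that of the 4E-binding proteins at -0.15, and 0 of the 53 genes passed the test.

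Among the 12 eIF3 genes tested, 8 lay above 0 and 4 below, with a median of 0.07 and 0 called. The median was 0.14 without library A and -0.01 without library B of the cells without asparagine. Eif3e, whose product lies at the edge of the eIF3 scaffold, had 389.7 (A) and 290.4 (B) CPM without asparagine, against 245 and 265 CPM with asparagine. Both libraries without asparagine were higher, library A by more (log2 fold change 0.41 ± 0.15, SE, edgeR adjusted p = 0.228), and the value was 0.18 without library A. Eif3d, the subunit that can bind the cap of some mRNAs, had 113 and 109 CPM without and 90.1 and 93.8 CPM with asparagine (0.27 ± 0.10, edgeR adjusted p = 0.222). An opposite-strand gene model, Gm17638, overlaps exons of Eif3d and shared 42.1% of the 50-base words of its longest transcript. Eif3k had 34.7 and 30 CPM without and 25.3 and 26.4 CPM with asparagine, the third eIF3 gene whose groups did not overlap. These genes, all higher without asparagine, were 25% of the 12 tested, close to the 26.1% of all genes tested. Eif3a, the largest subunit, had 3758 and 3098 CPM without and 2993 and 3256 CPM with asparagine, with only library A high (0.13 ± 0.13, edgeR adjusted p = 0.626). Eif3b, the subunit that bridges to the scanning machinery, had 76.4 and 132 CPM without and 108 and 111 CPM with asparagine, so library A was the lowest and library B the highest of the 4. The other 7 genes, Eif3c, Eif3f, Eif3g, Eif3h, Eif3i, Eif3l and Eif3m, had log2 fold changes from -0.09 (Eif3m) to 0.11 (Eif3h), and their groups overlapped.

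The eIF4 genes were mixed, with 3 of 10 above 0, 7 below, a median of -0.03 and 0 called. Among the helicase paralogs, Eif4a2 had 689 (A) and 637 (B) CPM without asparagine, against 549 and 520.4 CPM with asparagine, without overlap (log2 fold change 0.31 ± 0.11, SE, edgeR adjusted p = 0.198). Eif4a1, the main helicase gene of dividing cells, had 729.7 and 767 CPM without and 709.9 and 750.1 CPM with asparagine (0.04 ± 0.10, edgeR adjusted p = 0.877). Eif4a3, whose product sits in the exon junction complex, had 82.5 and 93.3 CPM without and 88.8 and 90.6 CPM with asparagine, the groups overlapping. The small nucleolar RNAs within Eif4a2 that could be tested, Snora81 and Snord2, were scarce, between 4.31 and 9.39 CPM in the 4 libraries. Their log2 fold changes were 0.01 ± 0.29 and 0.28 ± 0.23 (SE). Rfc4, the opposite-strand neighbour of Eif4a2, had 0.01 ± 0.12.

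Eif4g3, a scaffold gene, had 298 (A) and 278 (B) CPM without asparagine and 332 CPM in each library with it, so both libraries without asparagine were lower (log2 fold change -0.20 ± 0.10, SE, edgeR adjusted p = 0.336). Eif4g1, the main scaffold that joins cap, helicase and eIF3, had 501 and 651 CPM without and 603 and 633 CPM with asparagine, and Eif4g2, the scaffold of cap-independent initiation, had 1623 and 1926 CPM without and 1779 and 1798 CPM with asparagine. In both of these library A was the lowest and library B the highest of the 4. Eif4e, the cap-binding protein gene, had 224 and 244 CPM without and 267 and 249.7 CPM with asparagine, a narrow gap without overlap (-0.14 ± 0.11, edgeR adjusted p = 0.500). Eif4b, which stimulates the helicase, had 568 and 678 CPM without and 614 and 665 CPM with asparagine. Eif4e2, a relative of Eif4e, had 83.1 and 95.5 CPM without and 83.1 and 85.7 CPM with asparagine. Eif4h, a partner of the helicase, had 157 CPM in library A and 282 CPM in library B without asparagine, against 259 and 251 CPM with asparagine (-0.22 ± 0.25, edgeR adjusted p = 0.663), and the value was 0.14 without library A and -0.71 without library B.

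Of the 4 eIF4E-binding protein genes 3 lay below 0 and 1 above, with a median of -0.15 and 0 called. Eif4ebp1, which encodes 4E-BP1 and is known as a target of the stress factor ATF4, had 44.1 (A) and 62.3 (B) CPM without asparagine, against 66.5 and 66.8 CPM with asparagine. Both libraries without asparagine were lower, library A by more. Its log2 fold change was -0.32 ± 0.16 (SE, edgeR adjusted p = 0.353), and it was -0.10 without library A and -0.60 without library B. Eif4ebp2 had 73.0 and 107 CPM without and 97.4 and 104 CPM with asparagine, again with library A low. Eif4ebp3 had 5.94 and 5.72 CPM without and 6.56 and 6.27 CPM with asparagine, a small gap without overlap, and its longest transcript shared 65.5% of its 50-base words with a gene model that overlaps it on the same strand. Eif4enif1, which carries eIF4E into the nucleus, had between 142 and 147 CPM in all 4 libraries.

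eIF5A, which frees stalled ribosomes and is modified with hypusine, and eIF6, which keeps the ribosomal subunits apart, included the member with the lowest ratio of library A to B without asparagine, 0.453. Eif6 had 48.5 CPM in library A and 107 CPM in library B without asparagine, against 74.5 and 83.9 CPM with it. Library A was thus the lowest and library B the highest, and the log2 fold change was -0.03 ± 0.32 (SE, edgeR adjusted p = 0.973). Eif5a had 417 and 614 CPM without and 464 and 514 CPM with asparagine, the same order of libraries (0.08 ± 0.18, edgeR adjusted p = 0.847). Eif5a2 was evenly low, with 24.1 and 25.1 CPM without and 23.1 and 22 CPM with asparagine. The group median was 0.08 over these 3 genes, with 0 called.

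The libraries without asparagine differed from each other more than those with it. The log2 ratio of library A to library B had an SD of 0.353 over the tested members without asparagine and 0.0982 with it, against 0.443 and 0.273 over all genes tested. The median size of this ratio, sign left out, was 0.236 without and 0.0758 with asparagine for the members, against 0.226 and 0.0989 over all genes tested. Library A was under 0.75 of library B for 8 members, 15.1% of those tested against 10.8% of all genes, and these were Eef1g, Eif1a, Eif3b, Eif4ebp1, Eif4ebp2, Eif4h, Eif5a and Eif6. It was above 1.33 of library B for 3, 5.66% against 13.4% of all genes, and these were Eif1ax, Eif1b and Eif3e. The 8 low members had a median GC content of 53.7% in their longest transcript, the 3 high ones 39.7%, and the other 42 had 49.7%, though the 3 ranges overlapped. Across the 53 members the log2 ratio had a Pearson correlation of -0.254 with GC content and -0.00308 with log2 exon length, against -0.0843 and -0.119 across the 12092 tested genes with both measures, as a description of genes that share the same pair of libraries. The part of GC content or RNA quality in these differences was not tested.

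**Figure D3:**
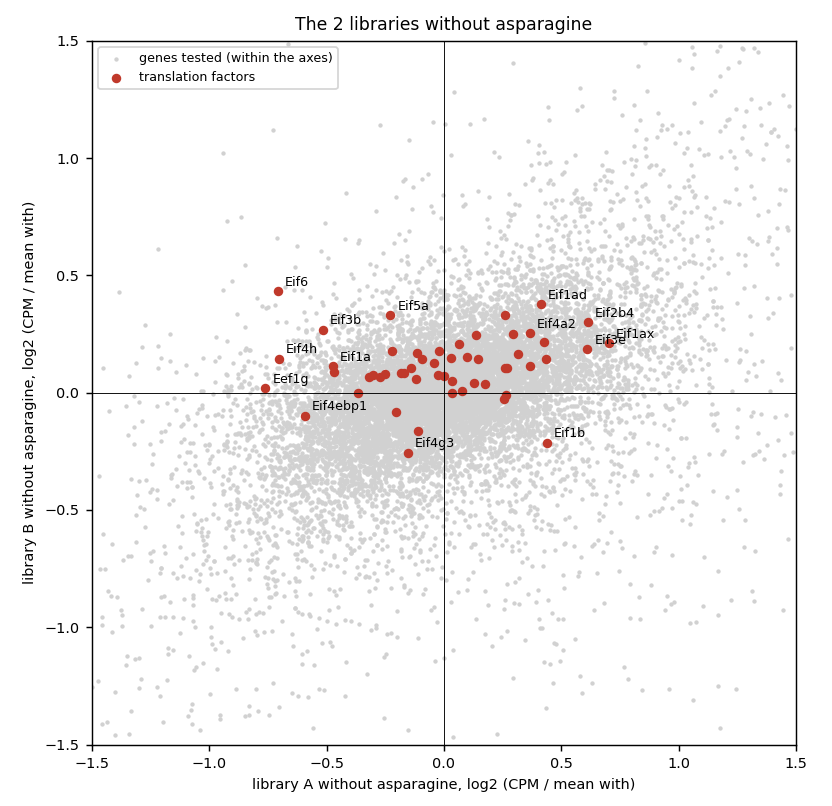
Each axis gives log2 of a library's CPM over the mean CPM with asparagine, for library A (horizontal) and library B (vertical) without asparagine, with tested genes in grey and the translation factors in red. Both axes share the libraries with asparagine. Eif6, at 48.5 CPM in A and 107 CPM in B, sits furthest to the upper left among the translation factors, while Eif1ad, at 59.0 and 57.6 CPM, lies near the diagonal.

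Leaving out a library without asparagine turned many members into calls, in fits that rest on a single library for that group and assume that it varies like the libraries with asparagine. Without library A, edgeR called 9 members higher and 1 lower, where 6.94% of all genes tested were called higher and 8.70% lower. Without library B it called 17 higher and 19 lower, where the shares over all genes were 18.9% and 21.6%. Without library A of the cells with asparagine the median log2 fold change of the members was 0.02, and without library B of those cells it was 0.09. The fits without library A and without library B of the cells without asparagine share the libraries with asparagine. Eif4a2 had log2 fold changes of 0.25 without library A and 0.36 without library B, Eif1ad 0.38 and 0.41, Eif3d 0.25 and 0.29, and Eef1d 0.33 and 0.26. Eif4g3 had -0.26 and -0.16. Eif6 had 0.43 without library A and -0.71 without library B, Eif3b 0.27 and -0.52, Eif3c 0.18 and -0.23, and Eif5a 0.33 and -0.23, so for these genes the direction depended on which library was kept. Eif3b, Eif3c and Eif6 were chosen after their values were seen.

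Levels of different genes were compared per kilobase of exon, as CPM per kilobase averaged over the 4 libraries. They spanned a wide range, from 1.05 for Eef2k to 1152 for Eef1a1, with 17 of 53 members above 100 and 6 below 10. The order at the top was Eef1a1, Eef2 (407), Eif3a (375), Eif5 (212), Eif5a (211) and Eef1g (209.9). Between the 4 libraries Eef2 ran from 1298 to 1380.5 CPM and Eif3a from 2993 to 3758 CPM, and the per-kilobase ranges of these neighbours, 391 to 415 and 343 to 430.4, overlapped, as did those of Eif5, Eif5a and Eef1g. Although the eIF3 subunits work as 1 complex, their counts per kilobase, from amplified RNA, were far from equal. The part of the amplification, or of reads not assigned to a gene, in these differences was not tested. Eif3a stood at 375, Eif3l at 163, Eif3h at 115 and Eif3c at 109, while Eif3d stood at 20.4 and Eif3k at 10.8. Within eIF2B, Eif2b1 was highest at 21.9 and Eif2b4 lowest at 5.16. Among the 4E-binding protein genes Eif4ebp1 stood at 27.3, Eif4enif1 at 22.6, Eif4ebp2 at 16.5 and Eif4ebp3 at 8.23, but with the longest transcript as the length Eif4enif1 (38.8) was above Eif4ebp1 (30). The levels depend on the length used. With the longest transcript in place of the union of exons, Eif3a (639) was above Eef2 (438), and 11 of the 32 members named by rule were more than 1.5 times higher, at most 2.27 times.

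**Figure D4:**
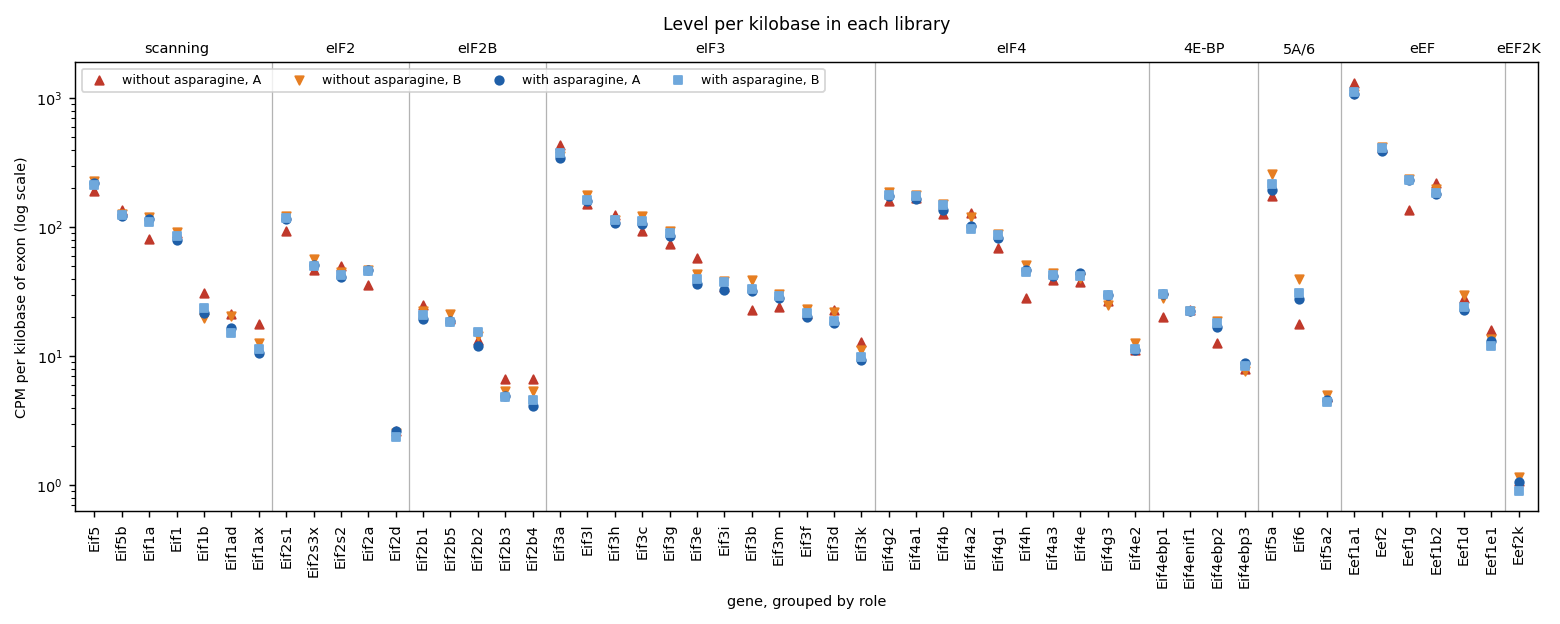
The vertical axis, on a log scale, gives CPM per kilobase of exon in each of the 4 libraries for the tested members, ordered within each role group from high to low. Eef1a1 has the highest mean, 1152, and Eef2k the lowest, 1.05, and the spread between genes is far wider than the spread between libraries.

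Of the 6 members that did not pass the filter, 4 had 0 reads in every library, which allows at most 0.1 to 0.164 CPM by a limit of 3 reads per library. They were Eef1a2, the eEF1A gene of neurons and muscle, the Y-linked Eif2s3y, and the neighbouring names Eif3j1 and Eif3j2, which encode the eIF3 subunit j. The longest transcript of Eif3j2 shared 90.8% of its 50-base words with Eif3j1. That of Eif3j1 shared 39.4% with Eif3j2, and 54.8% with any other gene. Whether shared sequence kept reads from being assigned to either gene was not tested, and the 0 is not taken as absence of expression. Eef1a2 and Eif2s3y shared no 50-base word with another gene. Eif4e1b and Eif4e3, rarer cap-binding paralogs, had at most 2 reads in a library. Among the tested members 17 shared no 50-base word with another gene's transcripts and 8 shared more than 25%, Eef1a1 (60.6%) and Eef1g (64.3%) among them, so their own part of the counts is uncertain. Exons of 12 tested members overlapped those of a gene on the opposite strand.

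Genes around the factors were described through 8 lists with 67 genes, all of them tested. Of these, 0 were called higher and 1 lower, where 0.771% of all genes tested were called higher and 1.07% lower. Above 0 lay 38 (56.7%, against 51.4% of all genes tested) and below it 29, and the median was 0.04. The called gene was Deptor, an inhibitor of mTOR, which fell to 53.5 (A) and 61.1 (B) CPM without asparagine from 119 and 106 CPM with asparagine (log2 fold change -0.97 ± 0.12, SE, edgeR adjusted p = 0.0155). The call was lost without library A (log2 fold change -0.88) and without library B (-1.05) of the cells with asparagine. Those fits rest on a single library with asparagine, and over all genes they also gave fewer calls in each direction. Among the 11 mTORC1 genes 6 lay above 0 and 5 below. Mtor, the kinase gene, chosen after its values were seen, had 97.6 and 109 CPM without and 142 and 143 CPM with asparagine (-0.46 ± 0.11, edgeR adjusted p = 0.0941). In the other lists the gene with the smallest p was Mcts1 for termination and recycling (0.44, edgeR adjusted p = 0.226), Paip2 for poly(A)-binding proteins (-0.22, 0.350) and Pdcd4, an inhibitor of eIF4A, for accessory helicases (-0.31, 0.317). It was Impact, an inhibitor of GCN2, for the eIF2 kinases and phosphatase (0.42, edgeR adjusted p = 0.222), and Dph2, of diphthamide synthesis on eEF2, for hypusine and diphthamide (0.52, 0.170). It was Mrrf for mitochondrial factors (0.19, edgeR adjusted p = 0.451) and Eefsec for selenocysteine (-0.27, 0.363). The eIF2 kinase genes were also chosen after their values were seen: Eif2ak1 had a log2 fold change of 0.09, Eif2ak2 -0.23, Eif2ak3 -0.09, and Eif2ak4, which encodes GCN2, had -0.10.

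The members with an unadjusted p under 0.05 lie on 6 chromosomes of build mm10, with positions from GENCODE M21. Eif1ad lies on chromosome 19 from 5366741 to 5371526 and Eif1ax on chromosome X from 159372178 to 159389928. Eef1d, Eif3d and Eif3e lie on chromosome 15, from 75894205 to 75909556, from 77958998 to 77970813 and from 43250058 to 43282719. Eif4a2 lies on chromosome 16 from 23107444 to 23114136, Eif2b4 on chromosome 5 from 31187558 to 31193430, and Eif3k on chromosome 7 from 28971372 to 28981864.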

How the data were processed

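The authors deposited raw counts of reads per gene symbol for 4 libraries in 1 table, not normalised, with 5 HTSeq summary rows. Bowtie2 and HTSeq on mm10 are named in the submitters' processing notes. The sources used here name no version, setting, annotation or strand option. Per the labels' protocols, total RNA was amplified with NuGEN Ovation RNAseq V2. Summary rows, 60.1% to 70.0% of all reads in a library, entered neither library sizes nor tests. The row for reads aligned at several places was 0 in every library.

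From the counts, filterByExpr (minimum count 10, minimum total 15) left 12843 genes, scaled by TMM and tested with edgeR 4.0.16 (quasi-likelihood, no term for the library letter) in R 4.3.3, with Benjamini-Hochberg adjustment over all genes. The SE was worked back from F, and the common biological coefficient of variation was 11.2%. DESeq2 1.42.0 and limma 3.58.1 served alternatives. Lengths, GC content and overlaps came from GENCODE M21. The fit was tested on simulated data with the noise of these libraries: fold sizes were recovered, many genes with small changes were not called, and unchanged genes made up more of the calls than the nominal share, so single calls may be liberal.

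The members, gene lists and tests were chosen with earlier results of these data known. The genes named by rule were, in each of 9 role groups, the member with the smallest p and that with the highest level per kilobase, the 4 members with the highest and the 4 with the lowest fold change, paralogs, and per pathway list up to 2 called genes or that with the smallest p. Members outside this rule were described after their values were seen.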

Additional observations from a re-analysis of the deposited data

How the results depend on the processing

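With 2 libraries per group, small differences were not detectable, and a p over the threshold does not show that levels were equal. The count of called members stayed at 0 under DESeq2 size factors, upper quartile scaling, DESeq2, limma-voom, the replicate block and the 10 most abundant genes left out. With no low-count filter 2 members were called higher, Eif1ax (log2 fold change 0.47, adjusted p = 0.0140) and Eif3e (0.40, adjusted p = 0.0312), and 0 lower. With 1 library left out, 0 to 17 members were called higher and 0 to 19 lower. Over all genes, 99 higher and 138 lower calls became 193 and 271 with DESeq2, 615 and 719 with no filter, 344 and 472 with the replicate block, and 24 to 2502 and 24 to 2861 with a library left out. The letters A and B are not said to mark a shared culture or day, and the difference of A from B had a correlation of 0.123 between the groups across 12843 genes. The letters were taken as names, and whether they pair the libraries is not known. Members whose groups did not overlap, counted under alternatives chosen after seeing the data, were 20 to 41 higher and 5 to 24 lower with a library left out, against 18 and 4. Non-overlap is more common with 1 library in a group, and over all genes it was 34.5% to 44.7% higher and 33.2% to 42.8% lower. With library A of the asparagine-free cells left out, 77.4% of members were higher (all genes 39.6%) and 11.3% lower (40.0%), and with library B left out 45.3% were higher (44.7%) and 45.3% lower (42.8%).

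With a library left out, median log2 fold changes ran from 0.00 to 0.10 for the members, 0.08 to 0.19 for scanning factors, -0.12 to 0.06 for eIF2 and tRNA carriers, 0.16 to 0.31 for eIF2B, -0.01 to 0.15 for eIF3, -0.15 to 0.08 for eIF4, -0.29 to -0.05 for 4E-binding proteins, -0.23 to 0.33 for eIF5A and eIF6, 0.08 to 0.25 for elongation factors and 0.09 to 0.30 for Eef2k. The scanning median was 0.19 with upper quartile scaling. Of 40 genes named by rule, 37 kept their sign under the alternatives that kept all 4 libraries, where Eif3a has no value with the 10 most abundant genes left out, being one of them. The others reversed with upper quartile scaling, to 0.02 for Eif4a3, 0.03 for Eif4g2 and 0.00 for Eif5. With a library left out, signs reversed within -0.03 to 0.25 for Eef1a1, -0.76 to 0.02 for Eef1g, -0.48 to 0.11 for Eif1a, -0.22 to 0.43 for Eif1b, -0.32 to 0.06 for Eif2s1, -0.12 to 0.17 for Eif2s3x, -0.01 to 0.26 for Eif3a, -0.01 to 0.07 for Eif4a1, -0.12 to 0.06 for Eif4a3, -0.03 to 0.18 for Eif4e2, -0.47 to 0.09 for Eif4ebp2, -0.31 to 0.07 for Eif4g1, -0.14 to 0.10 for Eif4g2, -0.71 to 0.14 for Eif4h, -0.18 to 0.08 for Eif5 and -0.23 to 0.33 for Eif5a. The cause was not tested.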
